A study of Mus musculus with 10 samples.

Results

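The genes examined are 10 members of the AP-1 and immediate early group: Fos, Fosb, Fosl1 and Fosl2 of the FOS family, Jun, Junb and Jund of the JUN family, and Atf3, Egr1 and Ier2. They were taken by symbol from the table of the WEHI 164 tumors, which holds 35958 features after rows of one name were summed. All 10 were found, on 1 row each, and all 10 were among the 15767 features that passed the filter on low counts, a CPM (estimated counts scaled to the library size) above 0.37 in at least 3 tumors. The list names genes by their known place in the pathway, and its rule picks rows by symbol alone. The genes were nevertheless chosen with earlier results of these data known. Their spreads and correlations below are therefore not those of a list made blind to the data.

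WEHI 164 is a fibrosarcoma line of the BALB/c mouse, grown here under the skin of female BALB/c mice as wild-type cells. A piece of each tumor was removed at surgery and put into RNAlater, which preserves RNA, and a hydrogel loaded with poly(I:C), a synthetic double-stranded RNA, was then applied to what remained. Mice were later sorted into responders (tumors 5, 9, 10, 11 and 12), whose tumors regressed completely, and non-responders (tumors 1, 2, 3, 6 and 7), whose tumor growth was not delayed. All 10 pieces were therefore untreated when taken, came from separate mice at 1 piece per mouse, and differ by an outcome that was seen afterwards. The methods state 1 age range for all mice and that removed tumors went into RNAlater immediately, with no time noted for single tumors. Totals ran from 16002949 estimated counts in responder 9 to 31160790 in responder 11, and from 19863863 in non-responder 3 to 28276142 in non-responder 2. All 10 fibroblast and sarcoma markers passed the filter, led by Vim at a mean of 4761 CPM. Non-responder 2 was the highest tumor for 8 of the 10 genes, so their fold changes are given with and without it.

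FOS and JUN proteins pair through leucine zippers to form AP-1, a transcription factor that binds the sequence TGACTCA and near relatives of it. FOS proteins cannot pair with each other and need a JUN partner, whereas JUN proteins can also pair among themselves. Immediate early genes are switched on from existing factors within minutes of growth factors, cytokines, stretch, injury or loss of blood flow, without new protein synthesis, and for Fos, Fosb, Egr1 and Ier2 the transcript is also broken down quickly. In resected tissue these transcripts can therefore follow the minutes around surgery as well as the state of the tumor. In fibrosarcoma and other mesenchymal cells AP-1 is known for driving matrix-degrading enzymes, invasion and proliferation.

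RefSeq promoters on GRCm38.p6, from 250 bases before to 50 bases after a gene's start in RefSeq, were at hand for 7 of the 10 genes. The RefSeq start is not always the GENCODE gene start used for positions below: the windows of Atf3 and Fosl2 lie inside the GENCODE gene and that of Jund lies before it, while those of Fosb and Junb are slightly shifted. The letters TGACG, the CRE half-site that CREB and ATF proteins bind, were searched on both strands and lay in 4 of these 7 promoters, those of Fos, Fosb, Junb and Atf3, against 20.8% of 32851 promoters. The 130 bases before the start are shown for Fos, Fosb and Junb, which were highest in the same tumor, and for Jun, which shares that pattern and has no match. Capitals mark TGACG.
Fos, chr12:85473760-85473889 (+): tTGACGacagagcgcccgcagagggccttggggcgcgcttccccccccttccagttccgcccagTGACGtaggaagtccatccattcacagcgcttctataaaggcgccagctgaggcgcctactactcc
Fosb, chr7:19310046-19310175 (-): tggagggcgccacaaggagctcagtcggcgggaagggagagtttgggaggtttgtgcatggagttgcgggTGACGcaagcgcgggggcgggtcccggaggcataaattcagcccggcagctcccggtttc
Junb, chr8:84978749-84978878 (-): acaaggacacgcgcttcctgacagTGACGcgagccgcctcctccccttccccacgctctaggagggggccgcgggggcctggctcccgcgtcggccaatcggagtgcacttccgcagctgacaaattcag
Jun, chr4:95052223-95052352 (-): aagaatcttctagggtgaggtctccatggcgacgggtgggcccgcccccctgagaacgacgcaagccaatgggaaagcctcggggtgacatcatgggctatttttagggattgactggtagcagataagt
In Fos the letters began 129 and 66 bases before the start, in Fosb 60 and in Junb 106. The full CRE TGACGTCA was in 0 of the 7 promoters and in 1.79% of all, and the AP-1 site TGACTCA was in 0 of the 7 and in 5.20% of all. GCGNGGGCG, a form of the EGR1 site, was in the promoters of Fosb and Fosl2 and in 5.55% of all. A CArG box, bound by serum response factor, was in 0 of the 7 and in 1.63% of all, and TATAAA was in 2, Fos and Junb, and in 13.6% of all. Fosl2 and Jund were also highest in non-responder 2 and had no TGACG match, while Atf3 had a match and was highest in responder 9. A link between the match and the levels was not tested. These matches say only which letters lie in this window.

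Among the FOS family, Fos and Fosb differed widely from tumor to tumor and the other pair did not. Fos, on chromosome 12 from 85473890 to 85477273 of GRCm38 (GENCODE vM21, as for all gene positions here), had 15.7, 42.4, 46.8, 20 and 15.8 CPM in responders 5, 9, 10, 11 and 12. In non-responders 1, 2, 3, 6 and 7 it had 19.4, 84.2, 27.1, 17.3 and 11.3 CPM. Both the highest and the lowest tumor were thus non-responders, a 7.42-fold range, and the responders lay between them. Fosb, the FOS protein best known from neurons and present on chromosome 7 from 19302696 to 19310051, had 19.5, 11.3, 19.0, 17.0 and 9.51 CPM in the responders and 14.6, 53.7, 30.6, 6.45 and 4.93 CPM in the non-responders, in the same order. Its range of 10.9-fold again ran from non-responder 7 to non-responder 2, and non-responder 3 was second. Fosl1, which encodes FRA-1, a FOS protein without the transactivation domain of FOS and linked to invasion in mesenchymal tumors, lies on chromosome 19 from 5447547 to 5455946. It had 150 to 199 CPM in responders, with a median of 173, and 139 to 191 CPM in non-responders, also with a median of 173. Fosl2, encoding FRA-2, on chromosome 5 from 32135801 to 32157842, had 101 to 131 CPM in responders and 99.8 to 137 CPM in non-responders. Neither of the FRA genes had a tumor at more than 1.44 times its lowest.

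JUN family genes kept to a narrower range than Fos and Fosb, with non-responder 2 on top in each. Jun, on chromosome 4 from 95049034 to 95052222, had 156, 202, 172, 174 and 174 CPM in the responders and 172, 235, 198, 164 and 148 CPM in the non-responders. Junb, which often restrains the action of JUN on proliferation and lies on chromosome 8 from 84974484 to 84978718, had 218 to 252 CPM in responders against 237, 321, 262, 221 and 190 CPM in non-responders. Jund, the member of the family that resting cells keep at a steady level, on chromosome 8 from 70698949 to 70700616, had 67.7 to 74.5 CPM in responders against 70.4, 93.6, 78.8, 69.7 and 62.9 CPM in non-responders. In each of the 3 genes non-responders 2 and 7 lay above and below all 5 responders, so the responders sat inside the range of the non-responders. The annotation has a gene on the opposite strand that overlaps Jun (Junos), Junb (Prdx2), Jund (Gm11175), Fosl1 (Ccdc85b) and Atf3 (Gm24748), and since the sources used here do not say whether strand was used in the counting, reads of the pairs may not be told apart.

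Egr1 encodes a zinc finger factor that serum and stress induce along with Fos. It had 132, 195, 183, 96.3 and 123 CPM in the responders and 123, 357, 214, 119 and 100 CPM in the non-responders. Non-responder 2 was at 1.67 times the next non-responder, and the remaining 9 tumors ran from 96.3 to 214 CPM. Ier2, a small nuclear protein of the immediate early response encoded on chromosome 8 from 84661331 to 84662852, had 64.1, 65.6, 67.2, 55.6 and 59.1 CPM in the responders and 59.9, 98.4, 71.4, 63.4 and 57.4 CPM in the non-responders. Without non-responder 2 its tumors would span 55.6 to 71.4 CPM. Atf3, a stress-induced partner of JUN that mostly represses, on chromosome 1 from 191170296 to 191218039, differed from the rest in its leading tumor. It had 17.4, 31.6, 18.1, 23.9 and 20.9 CPM in the responders and 13.8, 27.1, 25.7, 13.5 and 12.4 CPM in the non-responders. The highest was responder 9, and 3 non-responders lay below all 5 responders.

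**Figure D1:**
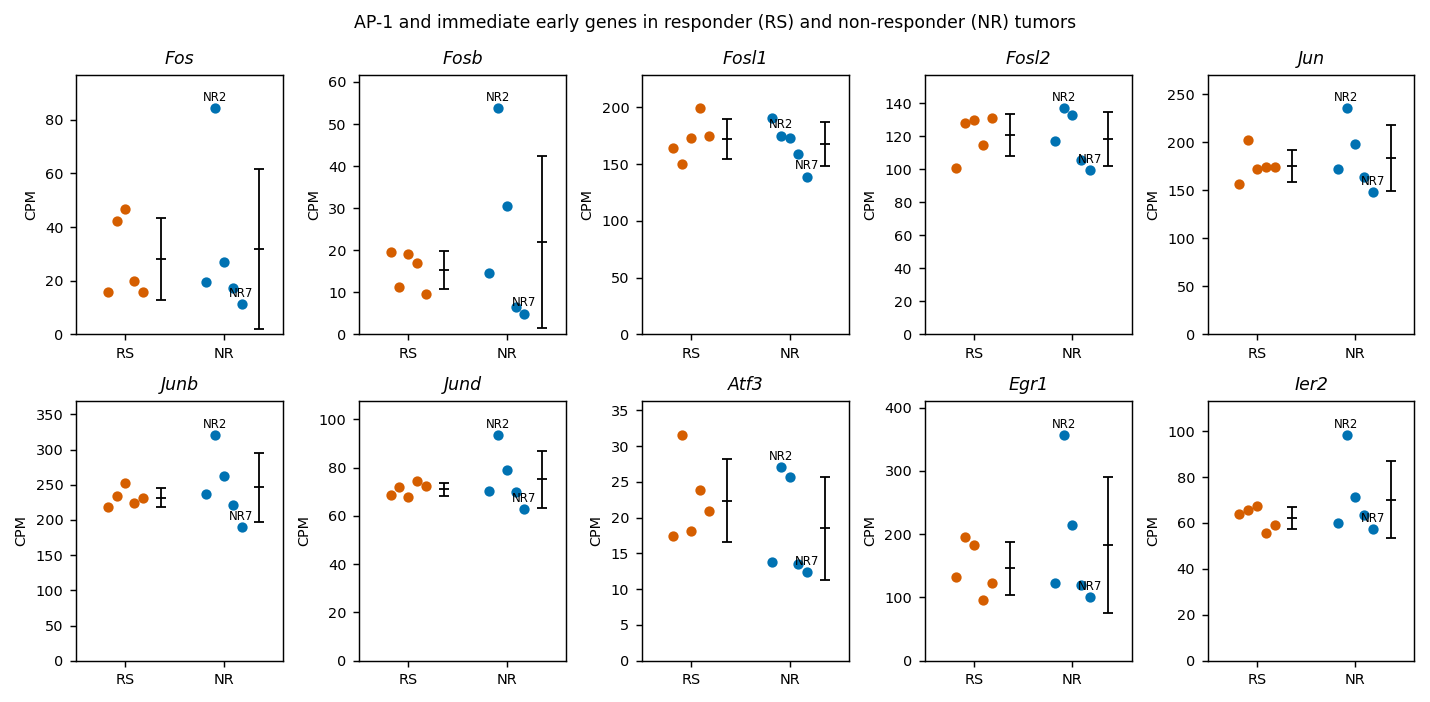
CPM of each gene (y axis, linear, from 0) in the 5 responder tumors (RS, orange) and the 5 non-responder tumors (NR, blue); points are tumors, and the bars beside them are the mean and SD of each group. Non-responder 2 is the highest tumor in 8 of the 10 genes, with Fos at 84.2 CPM, and non-responder 7 is the lowest in 8, with Fos at 11.3 CPM.

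Whether these genes differed between the groups before treatment was tested with edgeR's quasi-likelihood test on all 15767 features, with Benjamini-Hochberg adjustment. None of the 10 genes passed: 0 had an adjusted p under 0.05, against 0 of all features (0.00%), and 0 had an unadjusted p under 0.05, against 1295 of all features (8.21%). That count ran from 839 without responder 11 to 2140 without responder 5. Adjusted p ran from 0.739 for Ier2 to 0.962 for Fosl2. DESeq2 called 4 features, none of them one of these genes, but it gave no adjusted p to Fos, Fosb, Fosl2, Jund, Atf3 and Ier2, which therefore could not be called. Limma-voom called 0 features. The mean was lower in responders for 7 genes and higher for 3, Fosl1, Fosl2 and Atf3, where 51.4% of all features were lower. The median log2 fold change of responders over non-responders was -0.08 for the 10 genes and -0.004 for all features. In every one of the 10 genes the groups overlapped, whereas 0.336% of all features had every responder above every non-responder and 0.590% had every responder below. In bulk RNA such as this, fewer cells of a type and less RNA per cell cannot be told apart.

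Fosb had the largest difference of the 10 by edgeR with all tumors. The mean was 15.3 ± 4.59 CPM over the 5 responders and 22 ± 20.4 CPM over the 5 non-responders (± SD here and below), and its log2 fold change was -0.53 with a standard error of 0.52 (edgeR adjusted p = 0.811). Egr1 averaged 146 ± 41.7 CPM in responders against 182 ± 107 CPM, with a log2 fold change of -0.33 with a standard error of 0.32 (edgeR adjusted p = 0.808). In Fos the means were 28.2 ± 15.2 CPM in responders against 31.9 ± 29.8 CPM, with a log2 fold change of -0.21 with a standard error of 0.50. Limma-voom gave -0.04 for Fosb, -0.21 for Egr1 and -0.07 for Fos on the same counts. Each of the edgeR differences was about as large as its standard error or smaller. Atf3 averaged 22.4 ± 5.78 CPM in responders against 18.5 ± 7.24 CPM, with a log2 fold change of 0.27 with a standard error of 0.24 (edgeR adjusted p = 0.787), and limma-voom gave 0.30, the largest of the 10 by that test. The remaining 6 genes lay between -0.17 for Ier2 and 0.04 for Fosl1, with standard errors of 0.09 to 0.13.

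The direction in 8 of the 10 genes turned when 1 tumor or another was left out, and in 6 of them that tumor was non-responder 2. Without non-responder 2 the log2 fold change of Fos was 0.57 with a standard error of 0.36 (edgeR adjusted p = 0.727), that of Fosb was 0.13 with 0.44 and that of Egr1 was 0.07 with 0.23. Jun, Junb and Jund moved to 0.04, 0.03 and 0.01, Fosl1 and Fosl2 were at 0.06 and 0.08, and Ier2 was at -0.02. Fosl1 turned to -0.01 without responder 11 and to -0.02 without non-responder 7, and Fosl2 to -0.03 without the latter. Thus 6 of the 7 genes that had been lower in responders changed sign, all but Ier2, and none of the 10 passed the test. Atf3 was at 0.45 with a standard error of 0.23 (edgeR adjusted p = 0.685). With a skeletal muscle marker score as a covariate Egr1 had an unadjusted p of 0.0135 and Ier2 of 0.0293, both lower in responders, and their edgeR adjusted p were 0.519 and 0.526. With a leukocyte marker score as the covariate their log2 fold changes shrank to -0.17 and -0.09.

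**Figure D2:**
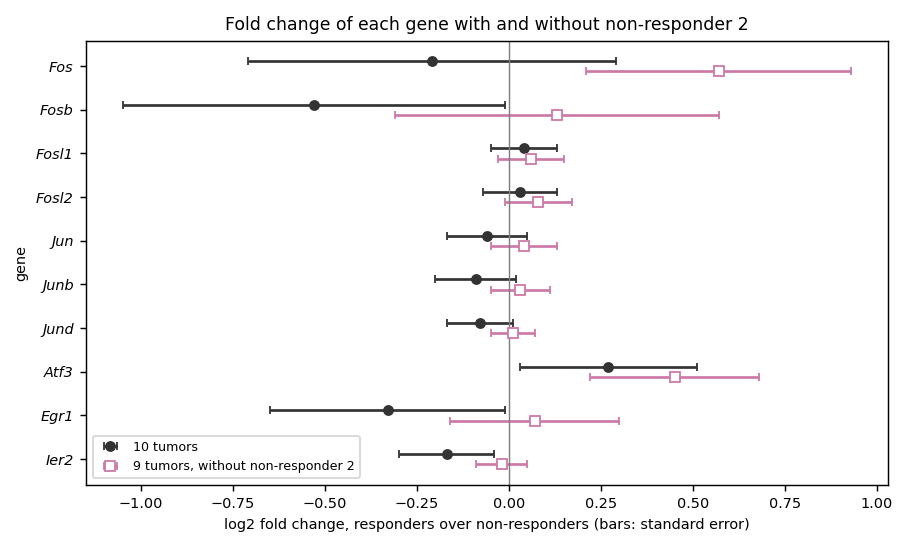
The log2 fold change of responders over non-responders from edgeR (x axis) for each gene (y axis), with all 10 tumors (filled circles) and with 9 tumors, without non-responder 2 (open squares); bars are the standard error. Fos moves from -0.21 to 0.57 and Fosb from -0.53 to 0.13, while Fosl1 and Fosl2 stay within 0.10 of 0.

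Several of these genes varied widely between tumors of one group. The SD of log2(CPM + 1) within groups was 1.01 in Fosb, 0.92 in Fos, 0.61 in Egr1 and 0.44 in Atf3, against a median of 0.12 over all features. They stood at the 99.9th percentile of all features for Fosb and for Fos, the 99.4th for Egr1 and the 98.3rd for Atf3. The other 6 genes had an SD of 0.16 to 0.23, between the 66th percentile for Jund and the 87.4th for Ier2, so all 10 were above the median. Expressed as edgeR's biological coefficient of variation, Fosb had 56.1% where features of its level had 10.9%, Fos 53.4% against 9.58% and Egr1 34.5% against 8.0%. The counts behind these values were not small, as Fosb, the lowest gene, had 126 to 1504 estimated counts per tumor and Fos had 290 to 2358. Fosl1, at 10% against 8.01%, varied nearly as other features of its level did.

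**Figure D3:**
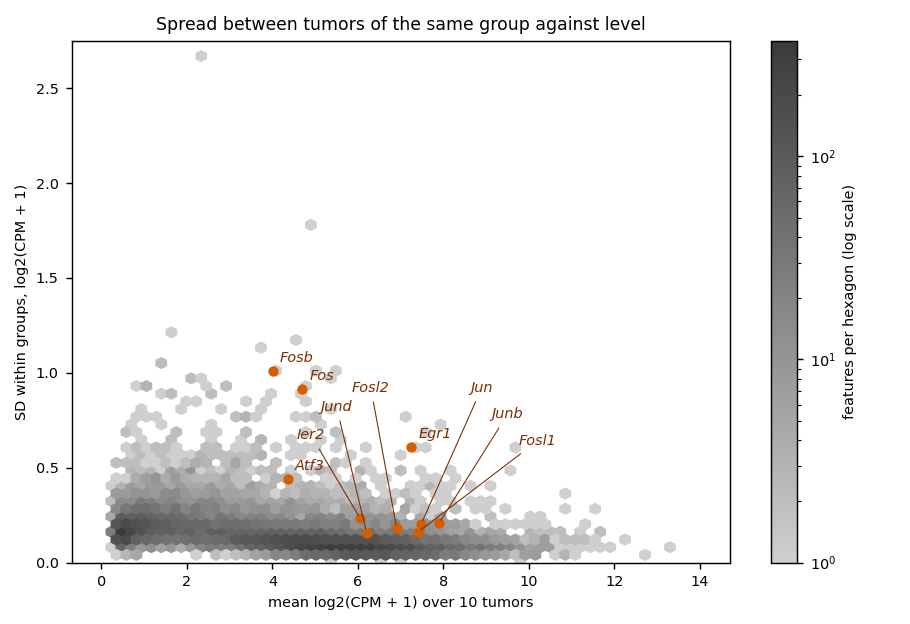
SD of log2(CPM + 1) between tumors of the same group (y axis) against the mean log2(CPM + 1) over 10 tumors (x axis); grey hexagons count all 15767 features on a log scale, and orange points are the 10 genes. Fosb at 1.01 and Fos at 0.92 lie far above the dense band, Egr1 and Atf3 lie above it, and the other 6 genes lie in its upper part.

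The spread was larger in non-responders for all 10 genes, both by the SD of log2(CPM + 1) and by the mean absolute deviation from the group median. By the SD the same held for 51.9% of all features. The 10 genes move together, so these are not 10 separate observations. The test permuted the deviations from the group medians over all assignments without taking the medians again, so its p are approximate. Fosb had a mean absolute deviation from the group median of 0.33 in responders and 1.06 in non-responders on the log2(CPM + 1) scale (two-sided permutation p = 0.0635, adjusted p = 0.529 by Benjamini-Hochberg for 10 genes). Junb followed with 0.05 and 0.20 (same permutation test, p = 0.135, adjusted p = 0.529). Permutation p for the other 8 genes ran up to 0.873, so none of the 10 differed in spread beyond what this permutation test over 252 assignments resolves, the smallest p it allows being 0.00794. Without non-responder 2 the difference, responders minus non-responders, turned to 0.24 in Fos and 0.03 in Egr1. In the other 8 genes it kept its sign, from -0.53 in Fosb to -0.01 in Atf3 and Ier2. Without non-responder 1 the difference was larger, at -0.99 in Fosb, -0.20 in Junb and -0.14 in Jund. Each of these had an adjusted p of 0.0794 by the same permutation test, so none passed 0.05.

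Non-responder 2 was the highest tumor for 8 of the 10 genes, where 12% of all features were highest in it, and non-responder 7 was the lowest for 8, where 10.3% of all features were lowest in it. These counts are not 10 separate observations, since the genes move together. The exceptions at the top were Fosl1, highest in responder 11, and Atf3, highest in responder 9. At the bottom they were Egr1 and Ier2, both lowest in responder 11. Against the median of the other 9 tumors, non-responder 2 had 4.35 times the Fos, 3.69 times the Fosb and 2.91 times the Egr1. The ratio was 1.55 for Ier2, 1.5 for Atf3, 1.39 for Junb, 1.37 for Jun, 1.33 for Jund, 1.17 for Fosl2 and 1.01 for Fosl1. Thus the FOS family itself ran from the largest ratio to none. Averaged over the 10 genes after each was standardized, non-responder 2 was at 1.76 SD, non-responder 3 at 0.68, responder 9 at 0.29 and responder 10 at 0.22. Below 0 came responder 11 at -0.07, responder 12 at -0.16, non-responder 1 at -0.21, responder 5 at -0.49, non-responder 6 at -0.67 and non-responder 7 at -1.36. The non-responders thus held the top 2 and the bottom 2 places, with the responders in between. Whether handling at surgery had a part in this order was not tested, since no time or note on the procedure belongs to a single tumor.

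Over the 10 tumors, all 45 pairs of the genes had a Pearson's r of log2(CPM + 1) above 0, and 29 had an adjusted p under 0.05 (permutation test, Benjamini-Hochberg over the 45 pairs). By Spearman's rho 6 pairs did: Fos with Junb, Fosl2 with Jun and with Junb, Jun with Jund and with Atf3, and Egr1 with Ier2. Egr1 and Ier2 were closest, with r of 0.946 (permutation p = 1.00e-05, the smallest that the resamples allow, adjusted p = 0.000450) and rho of 0.952 (permutation p = 0.000100, adjusted p = 0.00450). Without non-responders 2 and 3, the tumors farthest from the median of Egr1, r was 0.888 (exact permutation p = 0.00223) and rho was 0.905 (exact permutation p = 0.00456). Fos and Egr1 had r of 0.903 (permutation p = 0.00100, adjusted p = 0.00643) and rho of 0.685 (permutation p = 0.0344, adjusted p = 0.0774). Fos and Fosb, the 2 genes with the widest spread, had r of 0.725 (permutation p = 0.0176, adjusted p = 0.0330) and rho of 0.612 (permutation p = 0.0664, adjusted p = 0.107), and without non-responder 2 and responder 10 r was 0.445 (exact permutation p = 0.268). Fosl1 shared least with the others, with a median r of 0.247, an r of 0.0101 with Egr1 and 0 of its 9 pairs past the threshold.

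Fewer pairs passed without non-responder 2 or 7, although most r stayed above 0. Without non-responder 2, 43 of 45 r were above 0, with Fos and Jun at 0.716 and Junb and Egr1 at 0.761, and 4 pairs had an adjusted p under 0.05 for r (exact permutation test over 9 tumors): Fosl2 with Jun, Fosl2 with Junb, Jun with Atf3, and Egr1 with Ier2 at r of 0.926. Without non-responder 7, 40 of 45 r were above 0 and 11 pairs passed, and without non-responder 3 there were 18 pairs. Leaving out the 2 tumors farthest from the median of the first gene of each pair left 1, Fos with Jun, at r of 0.927. Deviations from the group means gave 33 pairs by r and 21 by rho, so tumors of the same group also varied together.

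**Figure D4:**
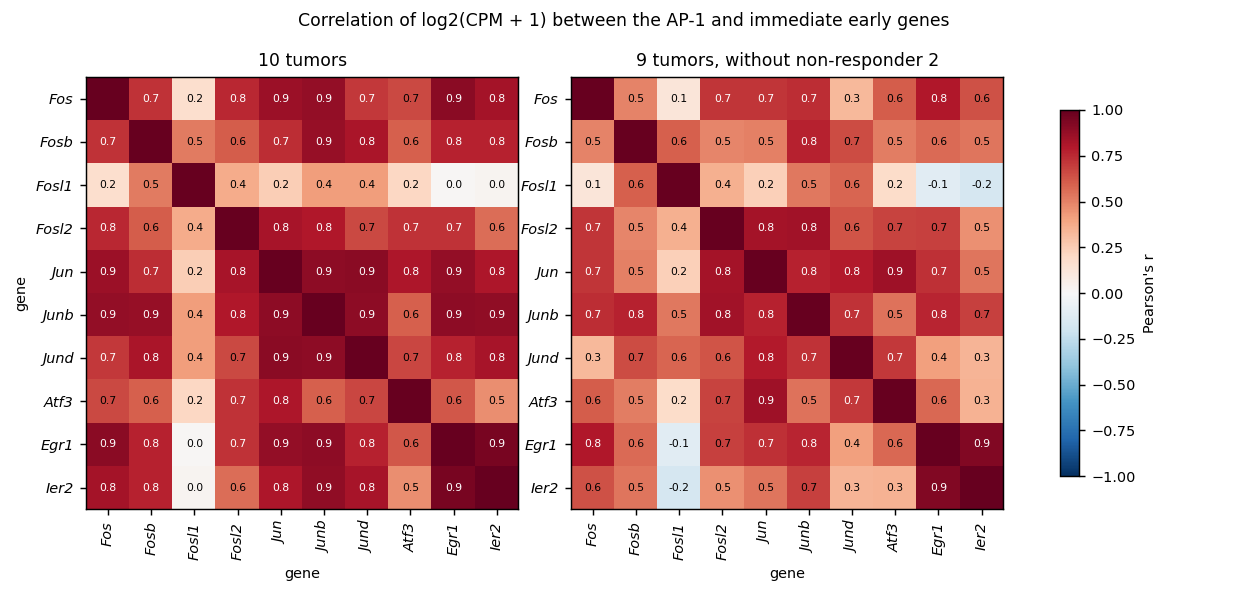
Pearson's r of log2(CPM + 1) between each pair of the 10 genes (both axes list the genes; red above 0, blue below), over 10 tumors on the left and over 9 tumors without non-responder 2 on the right. Fosl1 forms the pale row and column, with r of 0.0101 to Egr1, and Egr1 with Ier2 stays at 0.926 on the right where most other cells turn paler.

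Levels of different genes are compared here per kilobase of exon, as the mean CPM per kb over the 10 tumors. The length used is that of all exons of all annotated transcripts together, such as 6243 bases for Fosb and 9680 for Fosl2. Where the transcript made is shorter than this, a gene is placed too low. Junb led with 104 ± 15.1 and was above Fosl1, with 83.5 ± 8.79 (SD, n = 10 each), in 9 of 10 tumors. Jun with 56.3 ± 7.99 came next, below Fosl1 in 10 of 10 tumors, and Jund with 43.8 ± 5.0 was below Jun in 10 of 10. Estimated counts of Jund ended in 0.5 in some tumors, such as 2619.5 in non-responder 2, so reads may have been divided with another transcript and the place of Jund is uncertain. Jund, Ier2 with 43.5 ± 8.07 and Egr1 with 36.6 ± 17.6 did not separate, the first of each neighbouring pair being higher in 6 and in 7 of 10 tumors. Nor did Fos with 12.8 ± 9.52 and Fosl2 with 12.4 ± 1.44, where Fos was higher in 3 of 10. Atf3 had 9.49 ± 3.02 and Fosb 2.99 ± 2.31, and Atf3 was above Fosb in 10 of 10. So by this measure the steady FRA-1 gene was the main transcript of the FOS family, and the most variable genes were among the 4 lowest apart from Egr1. Junb and Fosl1 overlap protein-coding genes on the opposite strand, so their places are also uncertain if strand was not used in the counting.

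Genes that act around AP-1 were counted on lists written from general knowledge, without the 10 genes themselves. Of the 17 further AP-1 and bZIP partners, all measured, 3 had an unadjusted edgeR p under 0.05, all higher in responders, against 8.21% of all features in either direction. They were Batf3, needed for cross-presenting dendritic cells, with a log2 fold change of 0.60, Batf2, an interferon-induced JUN partner, with 0.68, and the antioxidant regulator Nfe2l2, with 0.11. The first pair were picked by rule and the third after its value was seen. Of 25 upstream kinases and factors 2 were lower in responders at that threshold, the p38 kinase gene Mapk14 with -0.14 and the JNK kinase gene Map2k7 with -0.09. Of 25 AP-1 target genes 4 were higher, the chemokine Ccl2 with 0.51, the urokinase receptor Plaur with 0.28 and, named after their values were seen, the collagenase Mmp13 with 0.74 and the metallothionein Mt2 with 0.31. The median log2 fold change was 0.02 for the partners, 0.01 for the upstream genes and 0.08 for the targets, against -0.004 for all features. With all 10 tumors no gene of any of these lists had an edgeR adjusted p under 0.05, the smallest being 0.580. Leukocyte markers were also higher in responders, in 8 of 8 by the mean, with a summed level of 997 ± 131 CPM over the 5 responders and 862 ± 112 CPM over the 5 non-responders (SD), and their part in these differences was not tested gene by gene. With a leukocyte marker score as a covariate the features with an unadjusted p under 0.05 numbered 447 in place of 1295.

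Other immediate early genes and the feedback inhibitors of the same signals shared the high point in non-responder 2. Of 36 other immediate early genes 34 passed the filter and 20 of these, or 58.8%, were highest in non-responder 2. Of 15 feedback inhibitors, phosphatases of MAP kinases, Sprouty and Spred proteins and others, 12, or 80.0%, were highest there, against 12% of all features. Zfp36 stands on both lists. Genes on these lists may move together as well, so the counts are not separate observations. Between the groups, 1 immediate early gene, Nfkbia, had an unadjusted edgeR p under 0.05, with a log2 fold change of 0.23, and 0 feedback inhibitors did. The following were named after their values were seen. Nr4a1, an orphan nuclear receptor gene, had 33.1 CPM in non-responder 2 and 10.1 to 24.3 CPM in the other 9 tumors. Ccn1, a matrix protein gene induced by serum, had 122 against 41.8 to 91.7 CPM. Dusp1, which encodes a phosphatase that switches off p38 and JNK, had 67.9 against 24.1 to 54.6 CPM, whereas Nr4a3 had 3.32 against 2.33 to 5.04 CPM and was not high. In some genes counted as highest in non-responder 2 the lead was very narrow. Spred1 had 217 CPM there and up to 217 CPM in the other 9 tumors. Dusp10 had 30.9 against at most 30.8 CPM, and Ier3 had 52.6 against at most 51.6 CPM. The AP-1 targets did not share the pattern, as 2 of 25 were highest in non-responder 2.

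**Figure D5:**
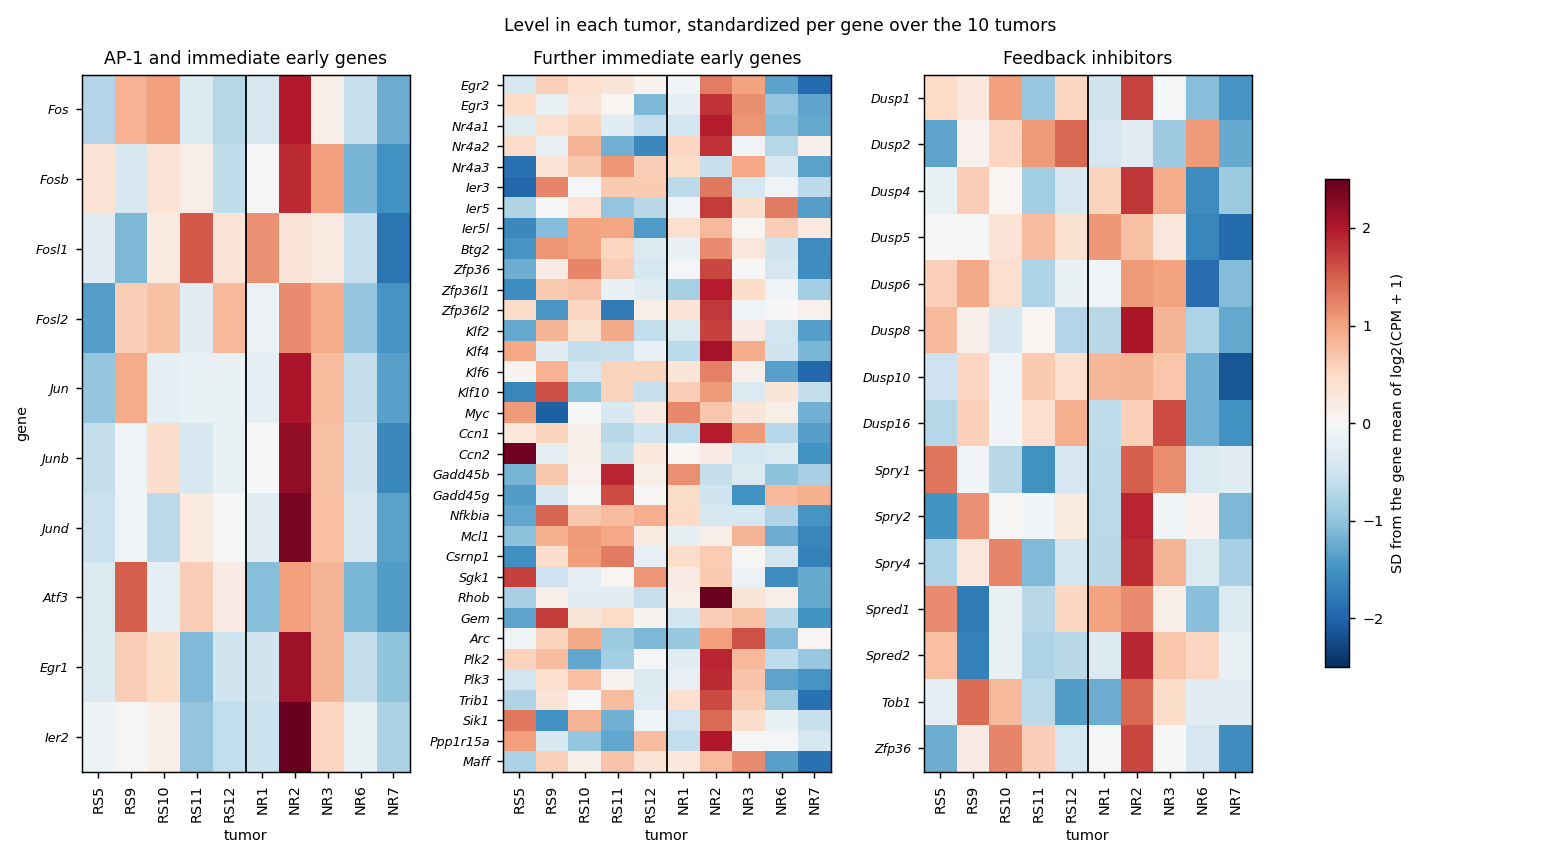
Level of each gene (y axis, 1 row per gene) in each tumor (x axis; responders left of the line, non-responders right), as the number of SDs from the mean of that gene's log2(CPM + 1) over 10 tumors, red above and blue below. The column of non-responder 2 is red in most rows of all 3 panels, where 8 of 10, 20 of 34 and 12 of 15 genes have their highest value.

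Stress genes and markers of other cells are set beside this. Of 13 heat shock genes 2 were highest in non-responder 2, and their summed level there was 6983 CPM, within the 6739 to 7896 CPM of the other 9 tumors. That sum is mostly Hsp90ab1 and Hspa8, which cells make at all times. Of the stress-induced genes, named after their values were seen, Hspa1b had 98.1 CPM in non-responder 2, or 1.86 times the median of the other 9, and 132 CPM in non-responder 3, and Hspb1 and Bag3 were highest in non-responder 2, at 134 and 74.4 CPM. Others of the list, also named after their values were seen, were not highest there. Against the median of the other 9, Hspa1a was at 1.19 times, Dnajb1 at 1.05, Dnaja1 at 0.899 and Hsph1 at 0.785. Of 14 hypoxia genes 1 was highest there, with a sum of 4523 against 3426 to 4943 CPM. Among marker lists, endothelial markers were highest in non-responder 2, at 210 CPM in sum. In the responders they summed to 182, 178, 168, 154 and 174 CPM, and in non-responders 1, 3, 6 and 7 to 187, 174, 198 and 172 CPM. All 8 endothelial markers passed the filter, 6 were highest in non-responder 2, and the most abundant was Pecam1 at a mean of 70.4 CPM, which was not high there, at 68.1 CPM or 0.945 times the median of the other 9. Macrophage markers, led by C1qa at 349 CPM and all 10 measured, were lowest in non-responder 2, at 1619 CPM in sum. They were at 1732, 2081, 2056, 2300 and 1831 CPM in the responders and at 2116, 1870, 1761 and 1653 CPM in the other non-responders. Lymphocyte markers summed to 32.9 CPM there, of which 17.1 CPM were Gzmb. They had 34.3, 103, 109, 155 and 89.6 CPM in the responders and 67.5, 46.2, 56.5 and 35.1 CPM in the other non-responders, with 9 of 12 listed past the filter, Trac not matched and Gzmb the most abundant at 43.7 CPM. Neutrophil markers, 6 of 8 past the filter and led by Csf3r at 20.2 CPM, had 16.1 CPM in non-responder 2 and 20.1 to 53.6 CPM elsewhere. No marker of these 4 lists that was matched was at 0 in all tumors. Thus non-responder 2 was high for most endothelial markers, though not Pecam1, and among the lowest for immune markers. Non-responder 7, the lowest tumor for 8 of the 10 genes, was low for these too, with leukocyte markers at 714 CPM in sum against 789 CPM in non-responder 2, and averaged over standardized lymphocyte markers responder 5 was lowest, at -1.24 SD against -0.94 SD in non-responder 2. The part of these cells in the levels of the 10 genes was not tested. Skeletal muscle markers, led by Acta1 at 57.3 CPM, were at 160 CPM in non-responder 2 against 103 to 256 CPM, and the 10 reference genes summed to 8864 CPM against 8023 to 10473 CPM, both inside the range of the other tumors. Fibroblast and sarcoma markers had rank 2 there, at 13166 CPM against 11397 to 13318 CPM, with 3 of 10 highest in it. Red blood cell markers also had rank 2, at 26.1 CPM against 13.9 to 28.6 CPM. Their part was not tested either.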

How the data were processed

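RNA from 10 WEHI 164 tumors, 5 responders and 5 non-responders grouped by the response label, was measured. The values the authors deposited are estimated counts per gene, from Kallisto and tximport on mm10 (GRCm38), with no scaling for depth or length. The annotation release and the use of strand are not given in the sources used here. Of 36009 rows, 9580 without a gene name (1.31% of counts) were kept as separate features, and the rows of 44 repeated names were summed. Before testing, counts were rounded. The filter asked for a CPM over 0.37 in 3 or more tumors and left 15767 features, which were tested with edgeR 4.0.16 (quasi-likelihood, TMM, Benjamini-Hochberg, threshold 0.05) in R 4.3.3. Standard errors were obtained by dividing the log2 fold change by the square root of F. The common biological coefficient of variation was 10.4%. DESeq2 1.42.0 and limma 3.58.1 were alternatives, with other normalizations, filters, pseudocounts and covariates, and each tumor left out in turn. Spread was tested by permuting the deviations from the group medians over all assignments, without taking the medians again, so its p are approximate. Correlations of log2(CPM + 1) used 100000 resamples, or all permutations for 8 or 9 tumors. CPM used TMM library sizes.

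The genes and the 19 lists were chosen with earlier results of these data known, so no p was adjusted over the 10 genes for fold changes and no list was tested. From each list the 2 genes with the smallest p in each direction could be named, with the most abundant gene of each marker list and the 5 features most like Fos, Jun and Fosl1. The test was tried first on simulated data. The mice are separate, so p-values measure the spread between animals, and the labels name no batch.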

Additional observations from a re-analysis of the deposited data

Results flagged for a closer look

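In all, 4 values stood apart from the others of their group by Dixon's criterion at 95%, of 116 looked at, where chance gives about 5.80. Each gene and list was looked at in each group on the CPM scale (summed over a list) and as log2(CPM + 1), so the values are not independent. Fos had 84.2 CPM in non-responder 2 and 11.3 to 27.1 CPM in the other non-responders, with a gap that took 0.784 of the range against a critical value of 0.71. On the log2 scale Fos did not pass, nor did any of the other 9 genes on either scale. The mean log2(CPM + 1) of upstream kinases and factors was 5.81 in responder 10 and 5.75 to 5.76 in the other responders. That of integrated stress response genes was 5.83 in non-responder 1 and 6.05 to 6.12 in the other non-responders. That of keratinocyte markers was 2.5 in non-responder 2 and 2.64 to 2.68 in the other non-responders.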

How the results depend on the processing

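No paired analysis was possible because the groups share no tumor numbers. None of the 10 genes had an edgeR adjusted p under 0.05 under any alternative that gave one, and DESeq2 gave none to 6 of them. DESeq2 called 4 features, and leaving out single tumors called 0 to 9, the 9 without responder 5, with Gzmb among them. Leave-one-out ranges of the log2 fold change were -0.47 to 0.57 for Fos, -0.79 to 0.13 for Fosb, -0.02 to 0.09 for Fosl1, -0.03 to 0.09 for Fosl2, -0.13 to 0.04 for Jun, -0.16 to 0.03 for Junb, -0.14 to 0.01 for Jund and -0.48 to 0.07 for Egr1, with the highest of all but Fosl1 and Fosl2 reached without non-responder 2. Atf3 and Ier2 kept their sign, at 0.13 (without responder 9) to 0.45 and at -0.24 to -0.02. With a leukocyte marker score as a covariate Fosl1 was at -0.07, Fosl2 at -0.04, Fos at -0.10, Egr1 at -0.17, Ier2 at -0.09, Atf3 at 0.15 and Jun at -0.10, and with a muscle score Fosl2 was at -0.08, Fos at -0.60, Egr1 at -0.68, Ier2 at -0.29, Jun at -0.17, Junb at -0.18, Jund at -0.14 and Atf3 at 0.08. The difference in spread, responders minus non-responders, ran from -0.27 to 0.24 for Fos, -0.05 to 0.03 for Fosl1 and -0.35 to 0.03 for Egr1 when single tumors were left out. Pairs correlated by r numbered 4 to 31 when single tumors were left out (4 without non-responder 2, 11 without non-responder 7, 18 without non-responder 3) and 1 without the 2 tumors farthest from the median of the first gene. By rho the count was 6 with all tumors. It ran from 3, without non-responder 2, 6 or 7, to 17 without responder 11. The cause was not tested. With library size only, an alternative chosen after seeing the data, the count of genes highest in non-responder 2 was again 8. Depth limits none of the 10 genes, the lowest count being 126.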

Other observations

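The features most like Fos, Jun and Fosl1 over the 10 tumors were looked for among 13056 named features with a mean of at least 1 CPM, as a description with no test. Those nearest to Fos were Lemd2, an inner nuclear membrane protein gene, with r of 0.946, Akr1b3, which encodes aldose reductase, with 0.943, Foxo4 with 0.934, Akr1b8 with 0.915 and Plk3, itself an immediate early kinase gene, with 0.909. Their ranges were narrow beside the 7.42-fold range of Fos: Lemd2 had 83.7 to 96.3 CPM and Akr1b3 had 141 to 172 CPM. Nearest to Jun were Sox9, a transcription factor of cartilage and progenitor cells, with r of 0.933, Gabarapl1 with 0.929, Rusc2 with 0.910, Ss18l2 with 0.902 and again Lemd2 with 0.897. Sox9 had 88.6 CPM in non-responder 2 against a median of 55.7 CPM in the other 9 tumors. Without non-responder 2 these r were 0.923 for Lemd2 with Fos, 0.877 for Sox9 and 0.937 for Rusc2 with Jun. Others fell further down the order: without that tumor Akr1b8 was at 0.831 and rank 44 with Fos, Plk3 at 0.836 and rank 40, Sox9 at rank 37 with Jun, and Lemd2 at 0.842 and rank 80 with Jun.

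Fosl1 had other neighbours. They were Furin, a protease that activates growth factors and matrix metalloproteinases, with r of 0.920, Bcar3 with 0.908, Tnip1 with 0.900, Cyp26b1 with 0.888 and Doc2g with 0.887. Furin had 183 to 258 CPM and did not stand out in non-responder 2, where it had 231 CPM against a median of 232 CPM elsewhere, and without that tumor its r with Fosl1 was 0.925. These correlations are over the same 10 libraries, and the features were picked for them.

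Other lists were counted for genes with an unadjusted edgeR p under 0.05, which 8.21% of all features had. Of 9 integrated stress response genes 0 had one, and Ddit3, the gene of the death-linked factor CHOP, averaged 55.9 ± 7.98 CPM (SD) over the 5 responders and 50.5 ± 11 CPM over the 5 non-responders. Of 10 fibroblast and sarcoma markers 2 had one, both lower in responders, Col1a1 with a log2 fold change of -0.28 and Col3a1 with -0.20. Of 8 leukocyte markers 4 had one, and all 8 means were higher in responders, with Cd52 at 0.41 and Tyrobp at 0.27, and of 10 macrophage markers 1 had, Msr1 at 0.17. Of 9 lymphocyte markers past the filter 3 had one, all higher in responders: Gzmb, a cytotoxic granule protease gene, at 1.48, Klrb1c at 0.89 and, named after its value was seen, Ncr1 at 0.88, both receptors of NK cells. Of 6 neutrophil markers past the filter 1 had one, Csf3r at 0.61. Of 8 endothelial markers 3 had one, all lower in responders: Cdh5 at -0.39, Tie1 at -0.29 and, named after its value was seen, Kdr at -0.19. All 10 skeletal muscle markers had a lower mean in responders and 2 had such a p, Ckm at -0.75 and Myh4 at -0.86. All 7 adipocyte markers past the filter were lower by the mean too, and 2 had such a p, Lep at -1.79 from few counts and Plin4 at -0.45. Of 8 keratinocyte markers 3 passed the filter, led by Dsp at 13.7 CPM, and Krt1 was at 0 counts in all tumors. Of 7 red blood cell markers 4 passed, led by Hba-a2 at 10.8 CPM, and Hba-a1 had an unadjusted edgeR p of 0.0307 with a log2 fold change of 0.41. With all 10 tumors no gene of these lists had an edgeR adjusted p under 0.05. Without responder 5 Gzmb did, at a log2 fold change of 1.72 (edgeR adjusted p = 0.0302).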
